A study of Homo sapiens with 8 samples.

Results

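The empty-vector arm of the study asks what doxycycline does to SUM159 trailblazer cells by itself. It comprised 4 of the 8 arrays of the series: 2 of empty-vector cells given 1 ug/ml doxycycline for 5 days, and 2 of the same cells kept without doxycycline for the same 5 days. Members were chosen by their titles, in which the empty-vector line is called SUM159T-WT and the arrays are numbered 1 and 2 in each group. The other 4 arrays came from cells whose pLIX vector carries ΔNP63α-V5, with and without the same dose, and they entered the statistical model so that all groups shared 1 estimate of the spread. SUM159 is an established human breast cancer line of mesenchymal, hormone-receptor-negative type, and trailblazers are its highly invasive subpopulation. All groups carried a pLIX lentiviral vector, so cells without any vector formed no group. The labels do not say whether replicates were separate cultures, so the spread behind each interval and p-value is that between arrays and may be technical.

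Doxycycline is a tetracycline antibiotic and is the switch of Tet-On vectors, in which it lets a transactivator bind the promoter in front of the insert. It also binds mitochondrial ribosomes, which descend from bacterial ones, and slows synthesis of the respiratory subunits encoded in mitochondrial DNA. In other cultured cells this has been associated with the ATF4 stress programme, with altered respiration and with slower growth. Doxycycline further binds divalent metal ions and inhibits matrix metalloproteinases. An empty-vector arm measures such effects at the level of mRNA in the absence of the insert.

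The cell type on the labels was checked first. Of 10 markers of a mesenchymal breast line, 9 were above background on all 4 arrays, with VIM (vimentin) at deposited intensities of 17134.8 and 16948.8 with doxycycline, against 16041.2 and 15226.7 without. Of 15 markers of luminal epithelium 4 were above background on all 4 arrays (KRT8, KRT18, GATA3 and ELF3), and 7, among them CDH1, ESR1, PGR and KRT19, on none of them. None of 8 endothelial markers was above background on any of the 4 arrays (0 of 8). Of 9 blood cell markers with a probe, 4 were above background on all 4 arrays (CD14, CD68, ITGB2 and LYZ) and 1, the pan-leukocyte gene PTPRC, on none. The summed intensity of these 9 markers ranged from 1419.3 to 1476.5 with doxycycline and from 1378.2 to 1486.1 without. TP63 had 0 named probes, and the absence of the insert was therefore not checked here.

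No gene was called for doxycycline in empty-vector cells. Intensities were background-corrected with normexp plus an offset of 50 and put on the log2 scale, a probe was kept if it exceeded the background level on both arrays of at least 1 group, and the brightest kept probe stood for a gene. limma called 0 of 12385 genes (0%) at a Benjamini-Hochberg adjusted p under 0.05, and the smallest adjusted p was 0.990. At an unadjusted p under 0.05 there were 543 genes, where a flat distribution of p would give 619. Of these 543 genes, 262 were higher with doxycycline (2.12% of all genes) and 281 lower (2.27%). At an unadjusted p under 0.001 there were 7 genes, against 12.4 for a flat distribution. With the replicate number as a block in the model, 771 genes were under an unadjusted 0.05, above the flat 619, and 0 were called.

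The differences were small and balanced about 0. The largest positive log2 difference was 0.63 and the largest negative one -0.94, 0 genes lay beyond 2-fold and 4 beyond 1.5-fold. The median over all genes was 0.00, with 6060 differences above 0 and 6325 below. In the ΔNP63α-V5 line the same dose and time gave 338 calls (2.73% of genes), and 64 genes lay beyond 2-fold. The SD of the log2 differences over all genes was 0.13 in the empty-vector line and 0.22 in the ΔNP63α-V5 line, as the plot of differences against level shows.

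**Figure D1:**
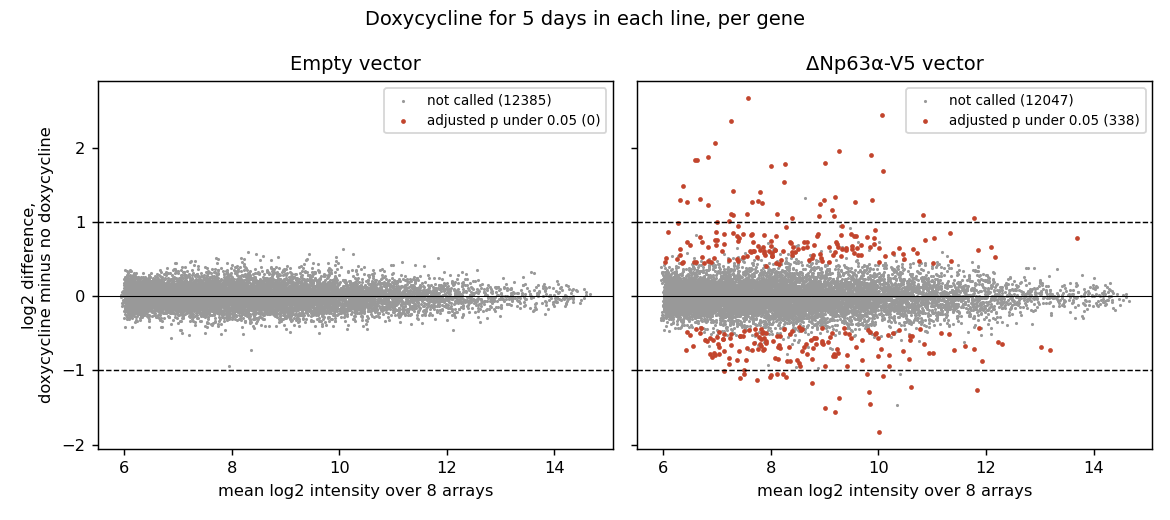
Log2 difference between doxycycline and no doxycycline (vertical axis) against mean log2 intensity over the 8 arrays (horizontal axis), 1 point per gene, for the empty-vector line (left) and the ΔNP63α-V5 line (right). Red points are called by limma at an adjusted p under 0.05 (0 at left, 338 at right), and dashed lines mark 2-fold.

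The 4 empty-vector arrays differed from each other about as much within a treatment as between treatments. The median absolute log2 difference over the 12385 genes was 0.120 between the 2 doxycycline arrays and 0.108 between the 2 arrays without it. Between treatments it was 0.100 for the arrays numbered 1, 0.123 for those numbered 2, and 0.123 and 0.119 for the cross pairs. The closest pair of the 6 was thus the doxycycline and no-doxycycline arrays numbered 1, which had a Pearson correlation of 0.9963 and 0 genes more than 2-fold apart, while the 2 doxycycline arrays had 6 such genes. In a principal component analysis of the 4 arrays, the leading component (42.3% of variance) put doxycycline arrays 1 and 2 at -9.52 and 11.7 and no-doxycycline arrays 1 and 2 at -5.81 and 3.64, so it followed the array number. The next component (36.5%) put them at -5.62 and -7.68 with doxycycline and at 1.28 and 12.02 without, so there the treatments lay on opposite sides of 0. What the array number stands for is not given in the labels.

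Because every value of a group of 2 against 2 has a smallest exact two-sided permutation p of 0.333, the limits below rest on the model fitted across all genes. The half-width of a gene's 95% interval had a median of 0.25 on the log2 scale, or 1.19-fold, and lay between 0.22 and 0.37 for the middle 90% of genes. The whole interval lay inside 2-fold either way for 12375 genes (99.9%) and inside 1.5-fold for 11879 (95.9%). These intervals hold for 1 gene at a time. With intervals widened to hold for all 12385 genes together, 4820 (38.9%) lay inside 2-fold.

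A call required a larger difference than the half-width of an interval. At the median SE of 0.115, a single gene changing alone needed a log2 difference of 0.94, or 1.92-fold, to pass the adjusted threshold. If 10 genes changed together each needed 0.74, if 100 changed 0.57, and if 338 changed, as in the ΔNP63α-V5 line, 0.48 or 1.40-fold. To pass with a probability of 80% the true difference had to be larger still, 1.11 for a single gene and 0.60 for 338 genes. A measured 2-fold difference would have passed alone for 7928 genes (64.0%), and a measured 1.5-fold difference for 0.

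The sensitivity also depended on level, since the offset compresses the change of dim probes. A doubled signal would have read as a median log2 difference of 0.43 in the 4129 genes with the lowest level, 0.79 in the 4128 of middle level and 0.96 in the 4128 with the highest level. Both a doubling and a halving of the signal lay outside the 95% interval for 56.3% of the lowest, 98.3% of the middle and 99.9% of the highest genes, and for 10504 genes (84.8%) in all. A doubling of 1 gene alone could have been called for 0 of the genes with the lowest level and for 44.6% of those with the highest. With 338 genes changing together those shares were 35.7% for the lowest and 98.8% for the highest. The plot of measured changes and their limits sets these sizes beside the data.

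**Figure D2:**
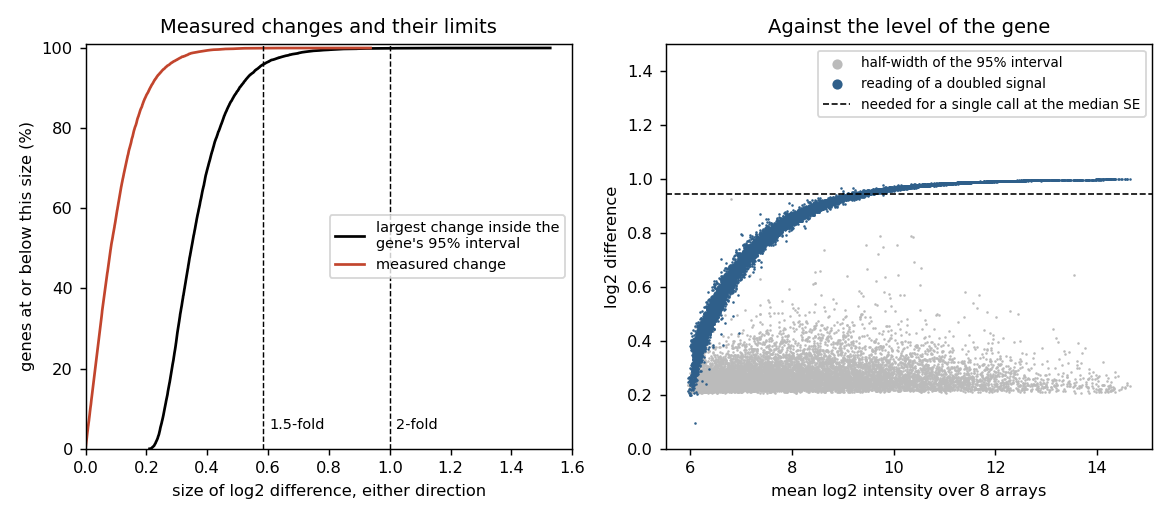
Left, the share of the 12385 genes (vertical axis, %) whose measured log2 difference (red) or the largest difference inside whose 95% interval (black) is at or below the size on the horizontal axis, with dashed lines at 1.5-fold and 2-fold. Right, for each gene the half-width of the 95% interval (grey) and the log2 difference that a doubled signal would read as (blue) against mean log2 intensity, with the 0.94 needed for a single call at the median SE dashed: the blue points fall below that line at low levels.

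The genes at the extremes are given as values, since none passed the test (limma adjusted p at least 0.990 for each). SPRR2D, a cornified-envelope protein of squamous epithelium, had the largest difference of all genes. Its log2 intensity was 8.19 and 7.31 with doxycycline, against 8.55 and 8.82 without, a difference of -0.94 ± 0.27 (SE) with a 95% interval of -1.53 to -0.35. The groups did not overlap, but doxycycline array 1 lay closer to the no-doxycycline arrays than to doxycycline array 2. A dimmer SPRR2D probe read -0.16. S100P, a calcium-binding protein of epithelial cells, was at 7.82 and 7.31 with doxycycline, against 8.20 and 8.38 without (-0.73 ± 0.16), again lowest on doxycycline array 2.

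By unadjusted p the leading gene was THOC3, a subunit of the THO complex for mRNA export. It read 8.86 and 8.99 with doxycycline, against 8.47 and 8.31 without, a difference of 0.54 ± 0.11 with an interval of 0.30 to 0.78. AP1S1, a small subunit of the AP-1 clathrin adaptor, was at 10.52 and 10.40 with doxycycline, against 9.89 and 9.90 without (0.57 ± 0.12). In both genes the doxycycline arrays were close to each other and above both others. The other 8 of the 10 leading genes on that side were POT1 (0.47), which protects telomere ends, ATP1B1 (0.45), the β1 subunit of the sodium pump, the kinase MAPK9 (0.52), HNRNPK (0.45), the mitochondrial protease HTRA2 (0.46), the cytokine-signalling inhibitor SOCS2 (0.49), CAP2 (0.49) and CRISPLD2 (0.45).

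On the lower side the leading gene was MZT2A, a component of γ-tubulin complexes. It was at 6.75 and 6.91 with doxycycline, against 7.25 and 7.40 without (-0.49 ± 0.11). PER2, a repressor of the circadian clock, was at 8.63 and 8.67 with doxycycline, against 9.09 and 9.17 without (-0.48 ± 0.11). These 2 genes also had groups that did not overlap, with arrays of a group less than 0.2 apart. The others were PLAC9 (-0.42), TPD52L2 (-0.45), the acute-phase gene SAA1 (-0.51), the kinase CDC42BPA (-0.40), the homeobox gene EMX2 (-0.37), PLAC4 (-0.41), ZNF330 (-0.50) and S100P. PLAC4 was not above background on either doxycycline array, so its reading there was at least 1.09-fold lower. That is a bound on the measured values and no confidence limit. The plot of these 20 genes shows every array.

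**Figure D3:**
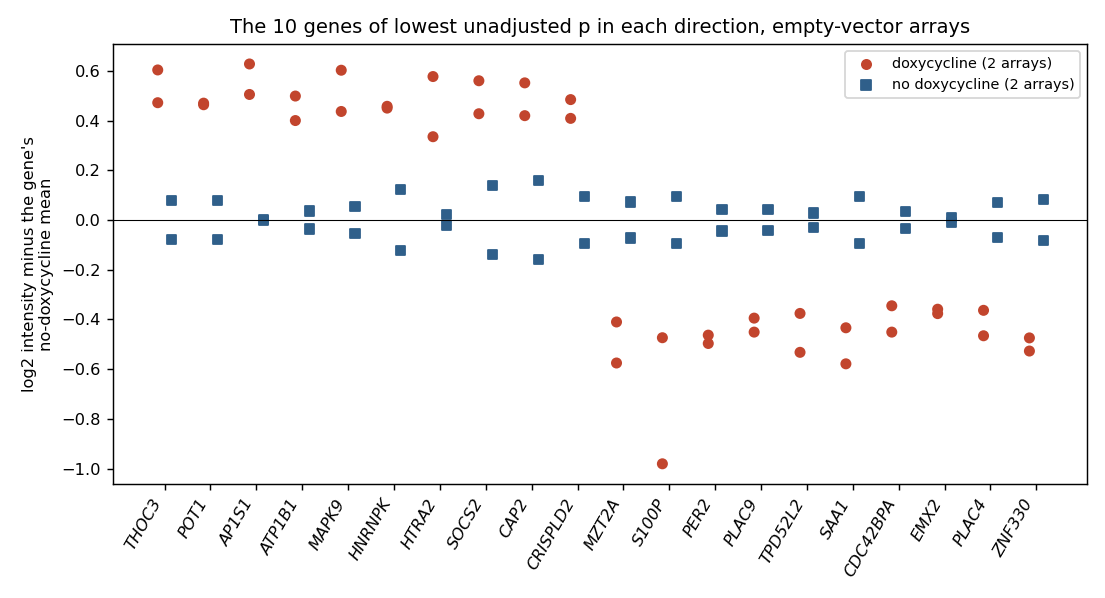
Log2 intensity minus the gene's mean over the 2 no-doxycycline arrays (vertical axis) for the 10 genes of lowest unadjusted p in each direction (horizontal axis), 1 circle per doxycycline array and 1 square per no-doxycycline array. The genes were picked for this separation, so the gap between circles and squares is no test, and S100P shows the widest distance between its 2 doxycycline arrays.

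A gene's further probes read mRNA of the same gene and were not used to pick it. Of these 20 genes 12 had another kept probe, 15 probes in all, and 10 of the 15 had the same sign as the picked probe. In the direction of the picked probe their median difference was 0.07, against 0.46 for the picked probes. The further probe of THOC3 read 0.06, of POT1 0.06, of MAPK9 -0.02 and of EMX2 0.03. HNRNPK, a gene with close relatives and pseudogenes, had further probes at 0.31, -0.04 and -0.29, and SOCS2 had one at 0.21. Over all genes at an unadjusted p under 0.05 in the empty-vector line, 9 of 264 further probes (3.41%) were also under 0.05 with the same sign. The same count for doxycycline in the ΔNP63α-V5 line was 225 of 735 (30.6%). Probes of 1 gene may read different transcripts, and dim probes read small differences.

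In some of the other genes among the 10 largest differences in each direction, 1 array lay apart from the others. CXCL8, a neutrophil-attracting chemokine, was at 10.59 and 11.54 with doxycycline, against 10.53 and 10.34 without, a difference of 0.63 ± 0.35 with an interval of -0.13 to 1.38. Doxycycline array 2 stood above the rest by about 1 log2 unit, while doxycycline array 1 lay only just above both no-doxycycline arrays. A further CXCL8 probe read 0.54. TYMS (thymidylate synthase) had the same shape, at 8.65 and 9.86 with doxycycline, against 8.64 and 8.75 without (0.56 ± 0.28), and its groups overlapped. S100A4, a calcium-binding protein linked to motility, was at 12.49 and 12.84 with doxycycline, against 12.17 and 12.14 without (0.51 ± 0.23, and 0.32 on a further probe). Others were the carboxypeptidase CPA4 (0.59), CMBL (0.56), the co-chaperone DNAJB6 (0.52, and -0.22 on a further probe), the replication kinase CDC7 (0.51), CREB3 (-0.57), E2F1 (-0.52), CDC42EP2 (-0.51) and LMAN2 (-0.50).

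Genes of the mitochondrial translation apparatus, where doxycycline binds, showed no called change. Of 77 measured genes of the mitochondrial ribosome 0 passed over all genes, 4 were higher and 2 lower at an unadjusted p under 0.05, and the median difference was -0.04. Groups did not overlap for 10 genes in the higher direction and 19 in the lower, 13.0% and 24.7% of the list, where over all genes these shares were 16.2% and 18%. MRPL39, a large-subunit protein, was at 10.13 and 10.24 with doxycycline, against 9.69 and 9.84 without (0.42 ± 0.13). MRPL47, also of the large subunit, was at 8.64 and 8.24 with doxycycline, against 8.86 and 8.83 without (-0.41 ± 0.14), and a further probe read -0.04. These were the highest and lowest members by the brightest probe. Whether the shares of groups that did not overlap differ from those of all genes was not tested. Every one of the 77 intervals lay inside 2-fold and 74 of 77 inside 1.5-fold.

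Of 32 mitochondrial translation factors and aminoacyl-tRNA synthetases 0 passed and 0 were under an unadjusted 0.05, with a range of -0.20 (GUF1) to 0.21 (NARS2) and a median of -0.03. All 32 intervals lay inside 1.5-fold. The nuclear-encoded subunits of complex I (35 measured) ranged from -0.26 (NDUFC1) to 0.25 (NDUFA3) with a median of -0.04, and those of complexes II to V (37 measured) from -0.21 (UQCR11) to 0.23 (ATP5PB) with a median of 0.03. In both lists every interval lay inside 1.5-fold, and 1 gene in all, NDUFC1, was under an unadjusted 0.05. It was at 9.13 and 9.06 with doxycycline, against 9.28 and 9.43 without. Groups did not overlap in the lower direction for 31.4% of complex I genes and in the higher for 8.57%. For complexes II to V these shares were 10.8% and 21.6%, and for all genes 18% and 16.2%. The differences between these shares were not tested. The subunits encoded in mitochondrial DNA had 0 named probes and were not analysed here.

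Mitochondrial quality control held the largest single difference of the mitochondrial lists. HTRA2, a protease of the intermembrane space, was at 8.49 and 8.25 with doxycycline, against 7.94 and 7.90 without (0.46 ± 0.11), and a further probe read 0.11. Of 20 measured chaperones and proteases 2 were higher and 0 lower at an unadjusted p under 0.05, with a median of 0.00 and PHB1 (prohibitin) lowest at -0.28. Among 23 genes of biogenesis and dynamics DNM1L, the GTPase of mitochondrial fission, was at 9.67 and 9.75 with doxycycline, against 9.46 and 9.30 without (0.33 ± 0.12), with further probes at 0.42 and 0.12. The coactivator PPRC1 was at -0.23 and the median of that list at -0.05. In that list groups did not overlap for 30.4% of genes in the lower direction and 13.0% in the higher. Over all genes these shares were 18% and 16.2%, and the difference was not tested.

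The ATF4 programme, through which cells answer mitochondrial and amino acid stress, was expressed at high level and did not pass in either direction. Cells activate it by phosphorylating eIF2α, which favours translation of ATF4, and ATF4 with partners of the C/EBP family then binds composite elements in its target genes. Of 37 list genes with a RefSeq promoter window (250 bases before to 50 after the start), 3 held the letters TGATGNAAT on either strand (8.11%). Of all 35116 windows 0.991% held them. The first share is counted per gene and the second per window, so they are not directly comparable. These 3 genes are shown because the letters mark where such an element can lie. Each is given in the sense of its gene with the matching bases in capitals, which here are the reverse complement of the motif.
FGF21, GRCh38.p14 chr19:48755444-48755502, plus strand: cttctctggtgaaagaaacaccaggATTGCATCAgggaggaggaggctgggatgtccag
GARS1, GRCh38.p14 chr7:30594819-30594877, plus strand: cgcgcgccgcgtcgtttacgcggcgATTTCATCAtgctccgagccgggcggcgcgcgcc
TARS1, GRCh38.p14 chr5:33440941-33440999, plus strand: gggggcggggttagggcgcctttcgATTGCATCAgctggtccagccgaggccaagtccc

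FGF21 is a secreted stress hormone, and GARS1 and TARS1 load glycine and threonine onto tRNA. With doxycycline these 3 genes differed by 0.10, -0.12 and -0.13, and none passed the test (0 of 3). The 33 measured list genes whose window lacks the letters had a median of -0.01.

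ATF4 itself was at 13.64 and 13.61 with doxycycline, against 13.58 and 13.63 without, a difference of 0.02 with an interval of -0.19 to 0.24. Its target DDIT3 (CHOP), a pro-apoptotic factor, differed by -0.02, with an interval of -0.24 to 0.20. ASNS (asparagine synthetase) was at 13.65 and 13.57 with doxycycline, against 13.66 and 13.59 without, with an interval of -0.26 to 0.23. In all 3 genes the groups overlapped, and a change of 1.5-fold in either direction lay outside the interval. CHAC1, which degrades glutathione, differed by 0.00, the pseudokinase TRIB3 by -0.08 and the secreted factor GDF15 by 0.15, with intervals inside 1.5-fold.

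Over the 41 measured ATF4 list genes 0 passed, 1 was higher and 2 lower at an unadjusted p under 0.05, and the median was -0.02. DDIT4, an inhibitor of mTOR signalling, was at 13.72 and 13.78 with doxycycline, against 13.48 and 13.38 without (0.32 ± 0.11). The amino acid transporter SLC38A2 was at -0.25 and ATF5, a further stress factor, at -0.24. The serine and one-carbon enzymes, which ATF4 also induces, had 0 calls among 14 measured genes, 0 at an unadjusted p under 0.05 and a median of 0.01. PHGDH, the first enzyme of serine synthesis, was at 13.52 and 13.40 with doxycycline, against 13.48 and 13.40 without. PSAT1 differed by -0.07, SHMT2 by 0.00 and MTHFD2 by 0.07, and none of these 4 intervals reached 1.5-fold. The widest values of the list were PSPH, which makes serine from phosphoserine, at 0.29, MTHFD1L at -0.23, and TYMS as given above.

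Glycolysis and hypoxia genes were the list with the largest number of members at an unadjusted p under 0.05 in 1 direction, 5 of 29 measured, all higher, with 0 lower and 0 called over all genes. That is a share of 17.2%, where 2.12% of all genes were higher at that threshold, and the difference between the shares was not tested. Of the 29 differences 23 were above 0 and the median was 0.09. P4HA2, a collagen prolyl hydroxylase, was at 8.97 and 8.99 with doxycycline, against 8.52 and 8.67 without (0.39 ± 0.11), and its further probes read 0.07 and 0.23. PGAM1 (phosphoglycerate mutase) was at 10.80 and 10.94 with doxycycline, against 10.52 and 10.48 without (0.37 ± 0.11). TPI1 (triose phosphate isomerase) was at 12.71 on both doxycycline arrays, against 12.28 and 12.45 without (0.35 ± 0.11). HK2 (hexokinase 2) and ALDOA (aldolase A), named after their values were seen, as were PGAM1 and TPI1, differed by 0.29 each. For each of the 5 genes the doxycycline arrays lay above both others. Of the 6 differences below 0 the lowest was PFKFB4 at -0.35, and GPI was at -0.20. The list's median was 0.03 without doxycycline array 2 and was 0.06 to 0.11 without each of the other empty-vector arrays, and GAPDH differed by -0.08.

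**Figure D4:**
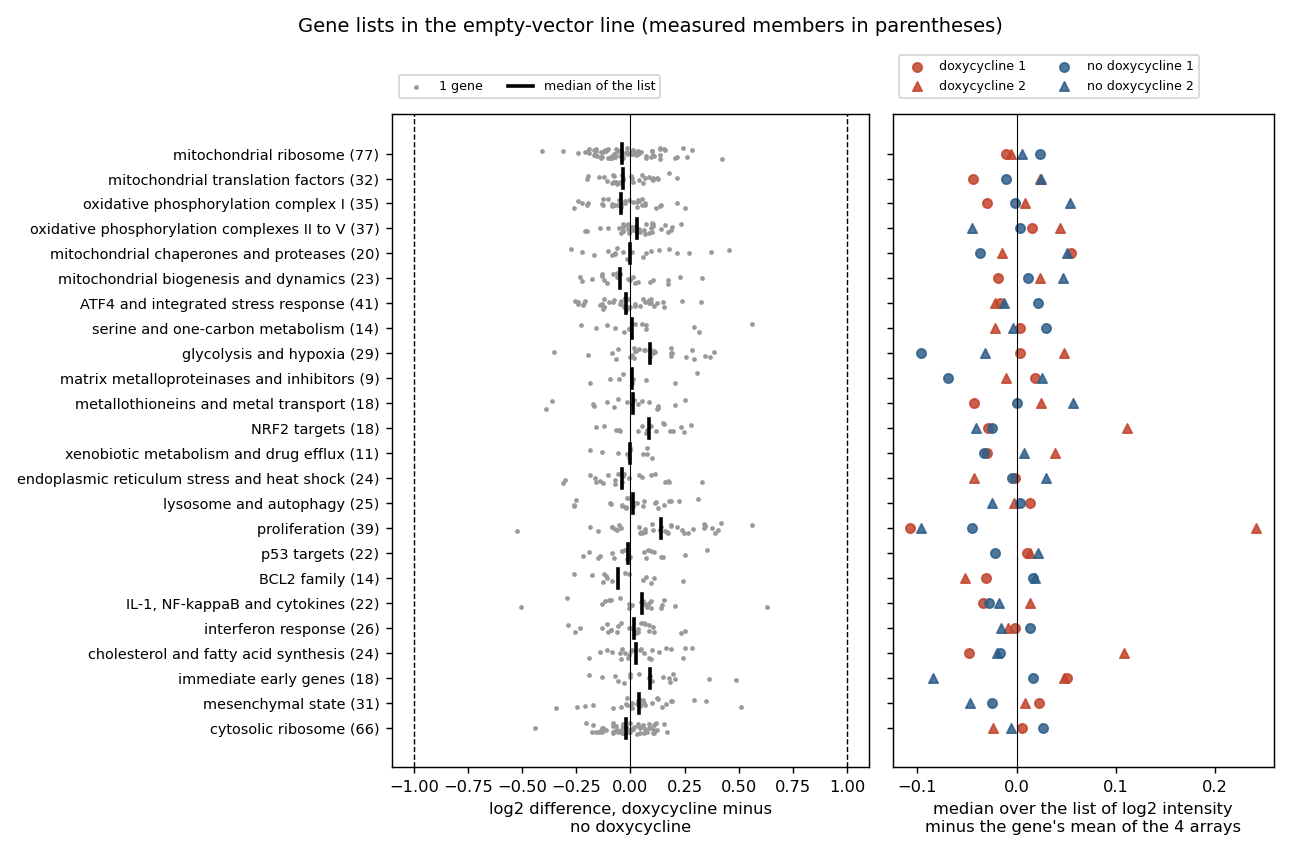
Left, the log2 difference between doxycycline and no doxycycline for each measured gene of 24 lists (grey points) with the list's median (black bar), and dashed lines at 2-fold. Right, the median over each list of the log2 intensity minus the gene's mean of the 4 empty-vector arrays, 1 symbol per array. Medians lie within 0.15 of 0, and doxycycline array 2 stands apart for the proliferation list.

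For proliferation genes the 2 doxycycline arrays differed from each other. Of 39 measured genes 30 differed in the positive direction with a median of 0.14, the highest of the lists, yet 0 were called and 1 was higher and 1 lower at an unadjusted p under 0.05. Relative to each gene's mean of the 4 arrays, the list's median was -0.11 on doxycycline array 1 and 0.24 on doxycycline array 2, against -0.04 and -0.10 on the no-doxycycline arrays 1 and 2. Array 2 of the doxycycline group exceeded both no-doxycycline arrays for 29 of the 39 genes (74.4%, against 34.6% of all genes). Array 1 did so for 4 (10.3%, against 32.6% of all genes) and was below both for 16. The list's median was -0.05 without doxycycline array 2 and 0.32 without doxycycline array 1. RRM1, a subunit of ribonucleotide reductase, was at 11.18 and 11.80 with doxycycline, against 10.99 and 11.16 without (0.42 ± 0.18). E2F1, a factor that switches on S-phase genes, went the other way, at 7.08 and 6.63 with doxycycline, against 7.54 and 7.22 without. The part that the doxycycline array 2 plays in the genes named above for their size, TYMS and CDC7 among them, was not tested.

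The targets of doxycycline outside mitochondria were likewise without calls. Of 9 measured metalloproteinases and inhibitors TIMP2, which inhibits and helps to activate MMP2, was at 10.90 and 11.02 with doxycycline, against 10.68 and 10.63 without (0.31 ± 0.11, and -0.06 on a further probe). TIMP1 was at -0.19, TIMP3 at 0.21 and the gelatinase MMP2 at 0.07. Of 23 list genes with a named probe only these 9 were kept, and the MMP genes among them were dim. A doubled signal would have read as 0.54 for MMP2 and MMP16, 0.44 for MMP19, 0.40 for MMP3 and 0.28 for MMP28. The half-widths of their intervals were 0.24 (MMP28) to 0.34 (MMP16), so small readings say less there. Among 18 genes of metal binding and transport MT1E, a metallothionein with near-identical relatives, was at 9.49 and 9.80 with doxycycline, against 10.15 and 9.92 without (-0.39 ± 0.17), and the median was 0.01. None of 11 genes of xenobiotic metabolism and efflux was under an unadjusted 0.05 (0 of 11), with CYP1B1 at -0.13, NQO1 at 0.08 and the efflux pump ABCG2 not above background in either group. That list had 22 genes with a named probe, and a doubled signal of CYP1B1 would have read as 0.51. NRF2 targets had a median of 0.09, which was 0.06 without doxycycline array 2 and 0.16 without array 1, and TKT (transketolase) was at 0.28. Groups did not overlap for 38.9% of NRF2 targets in the higher direction and 5.56% in the lower. Over all genes these shares were 16.2% and 18%, and the difference was not tested.

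Stress, growth-control and signalling lists held medians between -0.06 and 0.09. HSP90AA1, an inducible cytosolic chaperone, was at 12.36 and 12.90 with doxycycline, against 12.27 and 12.33 without (0.33 ± 0.15), while HSPA8 was at -0.31 ± 0.11. The early response factor EGR1 was at 9.57 and 9.52 with doxycycline, against 9.25 and 8.87 without (0.49 ± 0.20). Of 22 p53 targets 0 were under an unadjusted 0.05, with the cyclin CCNG1 highest at 0.35 and ZMAT3 lowest at -0.22. The members of lowest unadjusted p in each direction were UVRAG (0.31) and LAMP1 (-0.26) for lysosome and autophagy, BCL2L1 (0.24) and BOK (-0.26) for the BCL2 family, IFI44 (0.23) and IFIT2 (-0.29) for interferon, FASN (0.28) and CYP51A1 (-0.19) for lipid synthesis, and RPS2 (0.16) and RPL34 (-0.44, and -0.06 on a further probe) for the cytosolic ribosome.

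Genes of the mesenchymal state and common control genes gave a view of cell identity. Of 31 measured mesenchymal genes 3 were higher and 0 lower at an unadjusted p under 0.05, with a median of 0.04. The transcription factor TWIST2 was at 8.47 and 8.43 with doxycycline, against 8.12 and 8.18 without (0.29 ± 0.12), and CDH6 and S100A4 were the others. The 10 markers of a mesenchymal line summed to deposited intensities of 50578.3 to 52856.8 with doxycycline and 48368.4 to 48535.2 without, and the 15 luminal markers to 2396.2 to 2413.5 with doxycycline and 2420.0 to 2484.8 without. Their part in the values of these lists was not tested. The collagen receptor subunit ITGA11 was at -0.34 ± 0.16. Among control genes, GAPDH (-0.08) and TBP (-0.12) were below 0, and ACTB (0.16), HPRT1 (0.28) and PPIA (0.27) above, each with an interval that contained 0 on the brightest probe. The 2 further probes of ACTB read 0.41 and 0.27, both at an unadjusted p under 0.05.

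The genes that doxycycline changed in the ΔNP63α-V5 line were then read in the empty-vector line. The 2 comparisons share no array. Of 177 genes that rose there, 85 were above 0 and 92 below in empty-vector cells, and their median difference was -0.01, against 0.68 in the ΔNP63α-V5 line. Of 161 that fell, 90 were above 0 and 71 below, with a median of 0.02, against -0.67. At an unadjusted p under 0.05, 7 of the 177 were higher and 7 lower in empty-vector cells, and 8 of the 161 were higher and 11 lower. The empty-vector interval left out the value of the ΔNP63α-V5 line for 173 of 177 and 156 of 161. The difference between the lines itself passed at an adjusted p under 0.05 for 55 and 32 of them, where 0.727% of all genes passed that test. These genes were picked by their values in the ΔNP63α-V5 line, which enter both counts, so neither count is a test.

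IL1A (interleukin-1α) had the largest difference in the ΔNP63α-V5 line (2.67). In empty-vector cells it was at 7.27 and 7.12 with doxycycline, against 7.44 and 7.19 without, with an interval of -0.43 to 0.20. The integrin subunits ITGA2 and ITGB4, the neuropeptide gene GAL, LITAF, KRT75, SLC2A9, AKR1C2 and the syndecan SDC1 had empty-vector differences between -0.11 and 0.07. SERINC2 was at 6.69 and 6.51 with doxycycline, against 6.20 and 6.31 without (0.34 ± 0.11), and SLC14A1, a urea transporter, at 8.10 and 8.08 with doxycycline, against 7.64 and 7.79 without (0.38 ± 0.11). In these 2 genes the doxycycline arrays lay above both others, at sizes well below 2.06 and 1.78 in the ΔNP63α-V5 line. Several of these genes were dim without doxycycline, so small readings say less there. A doubled signal would have read as 0.43 for SERINC2, 0.39 for ITGB4, 0.42 for SLC2A9 and 0.54 for KRT75.

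Among the genes with the largest falls in the ΔNP63α-V5 line, 10 of 12 had a positive difference in empty-vector cells. Of all 161 genes that fell there 90 did, and of all 12385 genes 6060 did. S100A4 (0.51), CCN1 (0.36), PARM1 (0.35), the cadherin CDH6 (0.35), XAGE2 (0.25), SCG5 (0.19), PLAC8 (0.18), TENT5B (0.14), PRRX2 (0.07) and FSTL1 (0.01) were above 0, none of them called. The Wnt antagonist DKK1 was at 9.67 and 10.33 with doxycycline, against 10.06 and 9.97 without, so its 2 doxycycline arrays lay on either side of the others. FAM13B was at 9.42 and 9.03 with doxycycline, against 9.74 and 9.60 without (-0.45 ± 0.19, and -0.47 on a further probe), and its difference between the lines did not pass (adjusted p = 0.127 by limma). CXCL8 and CCN1 did not pass that test either (adjusted p = 0.172 and 0.124 by limma).

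**Figure D5:**
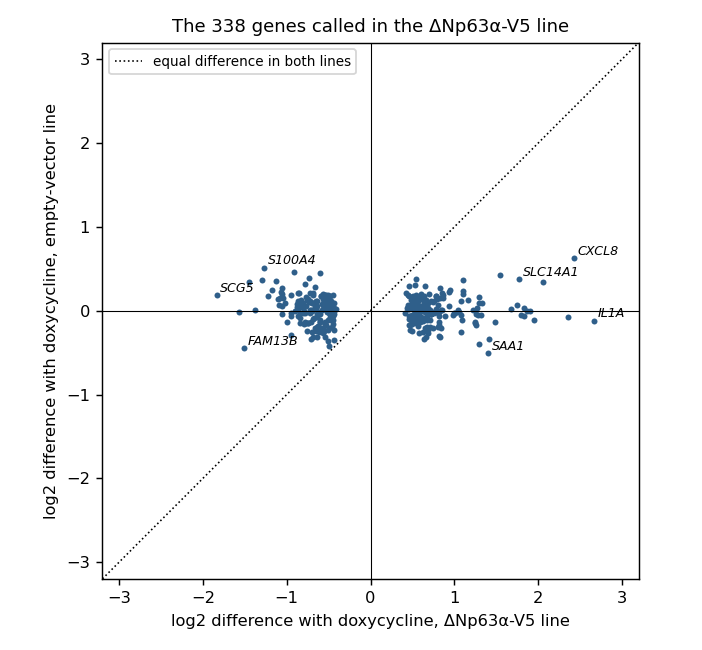
Log2 difference with doxycycline in the empty-vector line (vertical axis) against that in the ΔNP63α-V5 line (horizontal axis) for the 338 genes called in the ΔNP63α-V5 line by limma, 1 point per gene, with equal differences dotted. The points lie along the horizontal line at 0, between -0.51 (SAA1) and 0.63 (CXCL8) in empty-vector cells.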

How the data were processed

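Each of the 8 single-colour Illumina arrays was hybridised with biotinylated cRNA from total RNA, per the labels' protocols. The deposited table holds linear intensities of 47304 probes. The authors' normalisation is not given in the sources used here; the values themselves look quantile normalised, with a median of 113.5 and a range of 89.2 to 27456.4 on every array, so a shift common to most genes cannot be seen. A second deposited table was not used, because its 16 per-sample columns carry names that match no sample label.

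Intensities were corrected with normexp (offset 50) in limma 3.58.1 under R 4.3.3 and put on the log2 scale. A background level of 114.4 was set as 106.9, the most frequent deposited intensity, plus 1.645 SDs of 4.53 each, estimated from values under it. Kept probes numbered 23086, of which 16928 had 1 gene symbol in the platform annotation (30105 of all probes; 8 had several and 17191 none). The brightest stood for each of 12385 genes, 3465 of which had more than 1. Of the symbols 30066 matched RefSeq by gene identifier and 0 changed. One mean per group was fitted over 8 arrays and moderated by eBayes (7.48 prior and 4 residual degrees of freedom). The fit was tested on simulated data with known changes.

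The arrays, the 29 gene lists and the tests were chosen with earlier results of these data known. Genes were named by rule: the 10 of lowest unadjusted p and the 10 of largest difference in each direction, in each list the member of lowest unadjusted p in each direction and all members of lists of up to 12, 10 genes of the ATF4 and serine lists, 5 control genes, and the 12 largest rises and 12 largest falls called in the ΔNP63α-V5 line. Not every gene named by this rule is given in the text. Among the genes that are given, NARS2, ATF5, PFKFB4, PGAM1, TPI1, HK2, ALDOA, FGF21, GARS1 and TARS1 lie outside the rule. Lists are described by counts and medians, without a test. Promoter windows are RefSeq's (GRCh38.p14). Arrays and their number limit the precision.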

Additional observations from a re-analysis of the deposited data

Results flagged for a closer look

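For 26 of the 151 genes named by the rule, the doxycycline effects of the 2 lines differed by limma's interaction test (adjusted p under 0.05). Values are log2 effects in the empty-vector line minus those in the ΔNP63α-V5 line. They were below 0, meaning a lower value in empty-vector cells, for IL1A (-2.79), GAL (-2.44), ITGA2 (-2.06), SAA1 (-1.91), LITAF (-1.91), ITGB4 (-1.89), KRT75 (-1.87), AKR1C2 (-1.85), SLC2A9 (-1.80), SERINC2 (-1.72), SDC1 (-1.68), SLC14A1 (-1.40) and PER2 (-0.85). They were above 0 for SCG5 (2.02), CDH6 (1.80), S100A4 (1.78), DKK1 (1.55), PARM1 (1.48), XAGE2 (1.43), PLAC8 (1.40), FSTL1 (1.38), CPA4 (1.37), TENT5B (1.24), PRRX2 (1.16), ATP1B1 (1.05) and SOCS2 (0.87). Most of these genes were named for their change in the ΔNP63α-V5 line, which fixes the direction of the difference. PER2, SAA1, CPA4, ATP1B1 and SOCS2 were named for their empty-vector values instead. PER2 differed by -0.48 in the empty-vector line and 0.37 in the ΔNP63α-V5 line, SAA1 by -0.51 and 1.41, CPA4 by 0.59 and -0.78, ATP1B1 by 0.45 and -0.60, and SOCS2 by 0.49 and -0.38. That choice also favours a large difference. In the empty-vector line further probes read -0.18 and 0.06 for SAA1, 0.11 for ATP1B1 and 0.21 for SOCS2. PER2 and CPA4 had no further kept probe. With 2 arrays per group no array could be tested as an outlier.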

How the results depend on the processing

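All 19 alternatives called 0 genes, with smallest adjusted p between 0.212 (without EV dox replicate 1) and 0.9996. Genes at an unadjusted p under 0.05 numbered 266 (without EV no-dox replicate 2) to 785 (without EV dox replicate 1) when 1 array was left out, the lone array of a group being assumed to vary like the others. With no filter 20042 genes were tested, and 824 had an unadjusted p under 0.05, 20035 an interval inside 2-fold and 19630 inside 1.5-fold. With each of 23086 kept probes tested by itself the counts were 1020, 23068 and 22160. More features tested gives more of each. The other alternatives (no background correction, offset 16, cyclic loess, a stricter filter, the mean of probes, only the empty-vector arrays, robust or trended eBayes) stayed within 1.5 times. With the replicate number as a block 0 genes were called and 771 had an unadjusted p under 0.05. Arrays with the same number deviated together with a correlation of 0.21 between the 2 empty-vector groups and 0.43 between the 2 ΔNP63α-V5 groups. Across the lines these correlations were 0.04 to 0.19. The labels do not say what the number stands for. Of 57 named genes at an unadjusted p under 0.05, 0 changed sign under any alternative. That count is no test, since these genes were selected by that p. Robust or trended eBayes and the fit of only the empty-vector arrays also leave the difference itself unchanged. List medians moved by more than the spread between arrays in 59 of 486 cases. Depth is not a property of arrays; dim probes limit what could be seen.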

Other observations

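Genes at an unadjusted p under 0.05 in both lines are described here as values, since the lines share no array but do share probes, replicate numbers and 1 estimate of the spread. Of the 281 genes lower with doxycycline in empty-vector cells, 54 (19.2%) were also lower in the ΔNP63α-V5 line, where 7.0% of all genes were, and 18 (6.41%) were higher there, where 6.57% of all genes were. Of the 262 higher genes 36 (13.7%) were also higher (6.57% of all genes) and 21 (8.02%) lower (7.0%). As shares of the ΔNP63α-V5 line's own genes the shared sets are 6.23% and 4.42%. Over all 12385 genes the differences of the 2 lines had a Pearson correlation of 0.07. SPRR2D differed by -0.94 in empty-vector cells and -0.93 in the ΔNP63α-V5 line, PLAC9 by -0.42 and -0.50, CDC42EP2 by -0.51 and -0.41, EMX2 by -0.37 and -0.31, P4HA2 by 0.39 and 0.37, and HNRNPK by 0.45 and 0.39. None of them was called in empty-vector cells, and whether doxycycline or the array number moves with these values was not tested.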
